A study of Equus caballus with 14 samples.

Results

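The genes described here were the 60 that rose most consistently in the endometrium of mares between a cycle without pregnancy and a pregnant cycle, out of 26740 Ensembl gene identifiers counted in the series. For each identifier, the level was expressed as CPM (counts per 1000000 counts of the library), and the change d was the log2 ratio of pregnant to cyclic CPM within a mare, with 0.5 CPM added to both levels. Of the 11886 identifiers with more than 4 CPM in at least 4 of the 9 endometrium libraries, the 60 with the largest smallest d over the 4 mares were taken, with 4 identifiers set aside by the rule. They are called members 1 to 60 here, in the order of their smallest d. The rise itself chose the members, so their levels in cyclic and pregnant endometrium are a description and carry no test. The deposited files give identifiers without gene symbols, none of them matched the gene table used, and symbols from other sources were not used here. The roles of the encoded proteins are therefore not described, and 2 identifiers are printed.

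Messenger RNA was sequenced from biopsies of the uterine lining and from embryos, all collected 13 days after ovulation. Cyclic endometrium (n = 4) came from Warmblood mares left unbred, and pregnant endometrium (n = 5) came from mares that were inseminated with semen of a single stallion and carried an embryo. The embryo group (n = 5) consisted of the embryos flushed from the pregnant mares. Ovulation had been induced with hCG in both kinds of cycle, and the mares served as their own controls. Cyclic and pregnant samples with the same number were therefore taken as a pair from the same mare. The labels give replicate numbers and do not name the mares, so this pairing is an assumption. Pregnant replicate 5 had no cyclic partner among the libraries. The study states that the order of the pregnant and the cyclic cycle was varied at random between mares. The labels do not give the order in each mare, so an effect of order was not tested. A rise here means a higher level in the pregnant cycle. The biopsy was the last step of sampling, after a tampon and, for the pregnant cycle, a flush to obtain the embryo, whereas a flush of the cyclic uterus is not stated. Pregnancy, insemination and such a difference in handling cannot be told apart in this design. Each biopsy held a mixture of cell types, and more cells of a type and more RNA per cell cannot be told apart in such samples. Marker genes of these cell types were not tested, because symbols were not used here.

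In the mare, the early conceptus does not attach at first but moves through the uterine lumen inside a capsule. Maternal recognition of pregnancy is the process by which its presence prevents the endometrium from releasing the prostaglandin that would end the life of the corpus luteum, so that progesterone secretion continues. During this period the conceptus depends on secretions of the endometrial glands, and the endometrium adjusts its secretion, transport and signalling. The embryonic signal that starts this process in the horse is not known.

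The endometrium libraries held from 21.8 to 46.9 M counts (M stands for 1000000), which placed a level of 3 counts between 0.0639 and 0.138 CPM. The embryo libraries held from 23.5 to 240 M counts. Embryo 1 stood apart, since its 10 most counted genes took 91.7% of its counts, against 17.5 to 33.9% in embryos 2 to 5. For that reason embryo levels are given for embryos 2 to 5, and embryo 1 is named where it differs.

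The members rose together as a visible share of the endometrial transcriptome. They took 0.365 ± 0.0989% of the counts of cyclic libraries (SD, n = 4) and 1.47 ± 0.394% of those of pregnant libraries (SD, n = 5). The lowest pregnant share was 1.18%, in mares 1 and 4, and the highest was 2.14%, in mare 2. Cyclic shares ran from 0.245% to 0.447%, so the groups did not overlap, which the choice of the members favours. The share rests largely on a few abundant members. Members 32, 56 and 10 had pregnant means of 3553, 1813 and 1460 CPM, against a median of 71.1 CPM over the members. Of the 60 members, 42 to 48 were over 4 CPM in a cyclic library and 56 to 60 in a pregnant library. The ratio of mean pregnant to mean cyclic CPM had a median of 4.16 over the members and ranged from 1.93 to 47.0.

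The members differed in their level in cyclic endometrium. The cyclic mean was under 1 CPM for 2 members (0.0505% of all genes past the filter), from 1 to 10 CPM for 23 (14.9% of all), from 10 to 100 CPM for 27 (66% of all) and 100 CPM or more for 8 (19% of all). Most members thus had a measurable level in the cyclic cycle as well. These levels are shares of reads and were not divided by gene length.

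Member 1, ENSECAG00000009450, came closest to a gene that was present in pregnancy and absent from the cycle. Its 4 cyclic libraries held 1, 14, 0 and 0 counts, and pregnant libraries 1 to 5 held 203, 748, 289, 153 and 191 counts. In CPM, the highest cyclic value was 0.644 and the lowest pregnant value was 4.18, so the groups were apart in every mare. With cyclic levels this low, the gene could pass the filter only with over 4 CPM in at least 4 pregnant libraries. Most of this separation was therefore set by the choice. The change d was 3.42, 4.01, 3.75 and 3.23 in mares 1 to 4, a narrow spread, although the added 0.5 CPM understates the change of a gene this low.

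Member 2, ENSECAG00000020082, was present in every cyclic library and much higher in every pregnant library. Its cyclic levels were 2.79, 6.39, 9.72 and 20.7 CPM in mares 1 to 4, and its pregnant levels were 61.7, 402, 220, 108 and 210 CPM in mares 1 to 5. The lowest pregnant value was about 3 times the highest cyclic value. Its d was 4.24, 5.87 and 4.43 in mares 1 to 3 and 2.36 in mare 4, whose cyclic level was already the highest.

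Member 3 had 1.47, 2.62, 3.59 and 2.32 CPM in cyclic libraries 1 to 4 and 12.7, 23.8, 21.8, 13.3 and 27.8 CPM in pregnant libraries 1 to 5. Both groups were compact, and d stayed between 2.29 and 2.96 in all mares. Member 5 had 159, 0, 343 and 214 counts in the cyclic libraries and between 637 and 2694 counts in the pregnant libraries. The absence of any count in cyclic library 2 gave it a d of 6.14 in mare 2, against 1.82 in mare 4. Member 6 had 51.6, 19.1, 61.8 and 29.4 CPM in the cycle and 209, 219, 218, 182 and 204 CPM in pregnancy. Its cyclic levels were scattered, whereas the pregnant levels were almost equal.

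Member 7 differed widely between pregnant mares. Its cyclic levels were 29.0, 28.6, 29.99 and 75.3 CPM, and its pregnant levels were 385, 1682, 330, 260 and 1000.5 CPM. Mares 2 and 5 had far more of this transcript than the other pregnant mares, yet no pregnant value came near the cyclic ones. Member 10 had 167, 237, 61.6 and 406 CPM in cyclic libraries and 519, 2082, 1238, 1579.5 and 1884 CPM in pregnant libraries. Its groups were separate too, with the lowest pregnant value in mare 1. Member 32 took the most counts, with a cyclic mean of 1107 ± 378 CPM (SD, n = 4) and a pregnant mean of 3553 ± 1045 CPM (SD, n = 5), a ratio of 3.21. Member 56 followed with 518, 128, 203 and 1066 CPM in cyclic libraries 1 to 4 and 1126, 2678, 1741.5, 1759 and 1760.4 CPM in pregnant libraries 1 to 5. The cyclic level of mare 4 came close to the pregnant level of mare 1, and all other values were well apart.

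**Figure D1:**
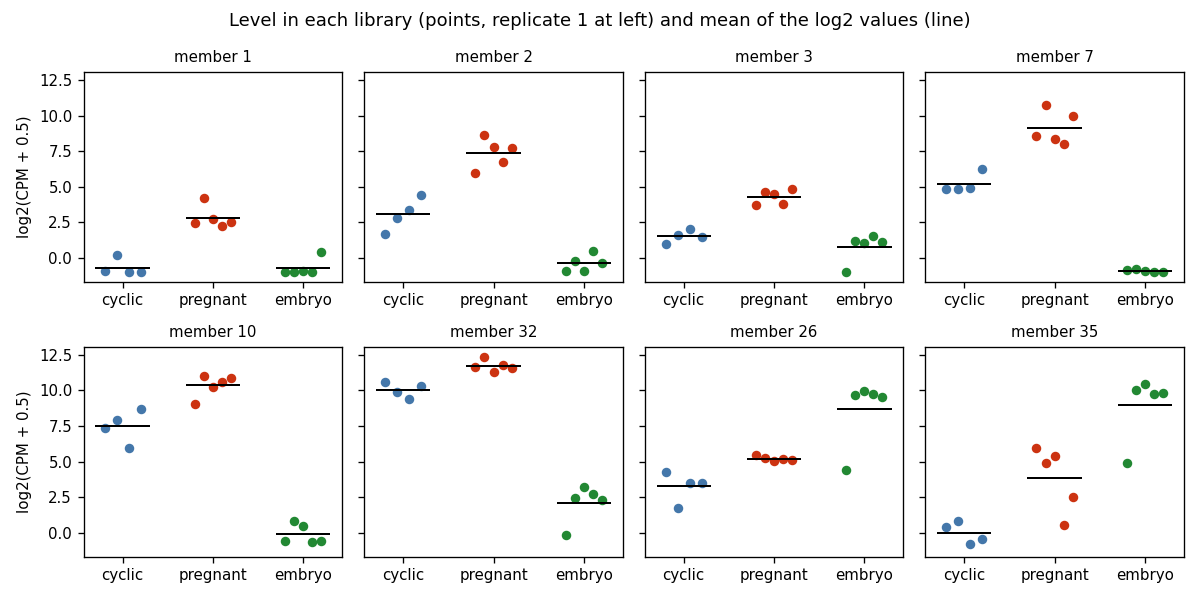
Level of 8 members in each library, as log2(CPM + 0.5), in cyclic endometrium (4 points), pregnant endometrium (5 points) and embryos (5 points), with the mean of these log2 values as a line. The pregnant points lie above the cyclic points in 7 of the 8 panels, with an overlap for member 35, while all embryo points are lowest for members 2, 7, 10 and 32. For members 26 and 35 the points of embryos 2 to 5 are highest, and that of embryo 1 is below them and within or below the pregnant range.

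The size of the rise differed between mares. The median d of the members was 1.42 in mare 1, 2.89 in mare 2, 2.499 in mare 3 and 1.36 in mare 4. Over all genes past the filter, the median d lay between -0.06 and 0.12 in these mares. The SD of d over all these genes was 0.574, 0.754, 0.666 and 0.457 in mares 1 to 4. It ranked the mares in the same order as the medians of the members. Whether the members differed between mares by more than this general spread was not tested. The smallest d of a member was found in mare 4 for 33 members and in mare 1 for 22, but in mare 2 for 3 and in mare 3 for 2. Conversely, the largest d was found in mare 2 for 35 members and in mare 3 for 22. The smallest d, by which the genes were ranked, thus mostly came from mares 1 and 4. Shares over all genes are not given for the counts of smallest and largest d. Cyclic library 2 held the lowest cyclic value of 26 members, or 43.3%, near the 40.6% of all genes past the filter. Cyclic library 3 held that of 21, or 35%, against 29.6% of all. Among pregnant libraries 1 to 5, the lowest value was in library 4 for 32 members (16.8% of all) and the highest in library 2 for 27 (12.3% of all).

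**Figure D2:**
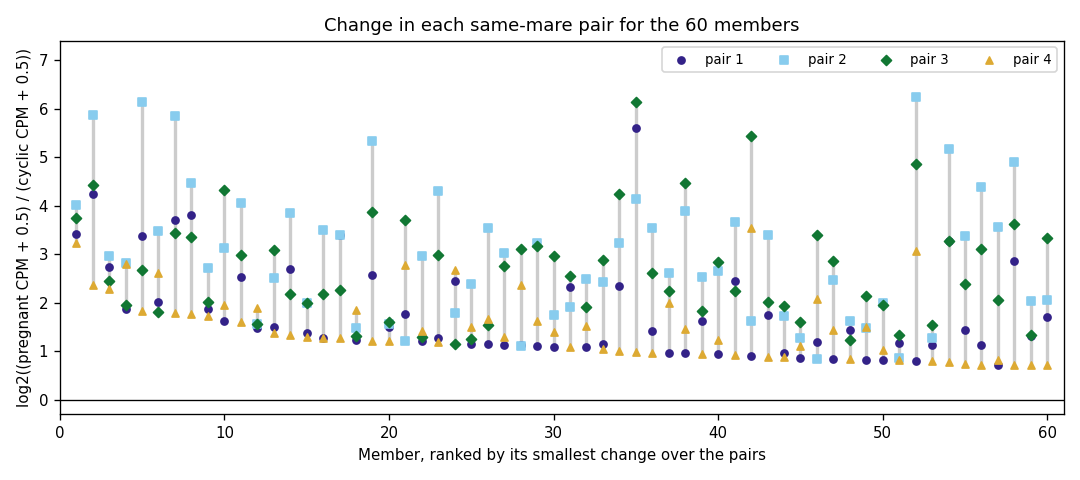
Change d in each of the 4 same-mare pairs (coloured points, joined by a grey bar from the smallest to the largest) for members 1 to 60, ranked by the smallest d. All points are above 0 by the rule, and the lower ends of the bars are mostly pairs 4 and 1.

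Some members changed by nearly the same factor in every mare. Member 20 had a d between 1.21 and 1.59, member 12 between 1.48 and 1.89, and member 18 between 1.24 and 1.85. Member 18 had 475, 344, 313 and 213 CPM in cyclic libraries 1 to 4 and 1121, 959, 778 and 767 CPM in the pregnant libraries of the same mares. Mares 1 and 4 held the highest and the lowest level in both cycles, so their order at the ends was kept. Other members changed unevenly. The widest spread was that of member 52, with a d of 0.80 in mare 1 and 6.24 in mare 2. Its cyclic levels were 36.5, 3.45, 6.26 and 21.05 CPM, and its pregnant levels were 63.9, 299, 196, 180 and 167 CPM. Mare 1 had the highest cyclic and the lowest pregnant level of this gene. Member 42 had 21.4, 29.0, 2.13 and 3.02 CPM in cyclic libraries and 40.2, 90.4, 114, 40.2 and 72.0 CPM in pregnant libraries. Its cyclic level was high in mares 1 and 2 and low in mares 3 and 4, and d ran from 0.90 in mare 1 to 5.44 in mare 3. Member 54 had 21.5, 1.79, 13.7 and 19.8 CPM in cyclic libraries and 214, 81.7, 137, 34.2 and 26.8 CPM in pregnant libraries. Here the pregnant levels of mares 4 and 5 lay just above the highest cyclic level. Over all members, the difference between the largest and smallest d had a median of 2.00 on the log2 scale.

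The list ended without a step. The smallest d of the last members inside it was 0.72 for member 58, 0.71 for member 59 and 0.71 for member 60. The next genes outside it had a smallest d of 0.69, 0.69 and 0.67. By the rule, d was above 0 in all 4 mares for all 60 members, as it was for 10% of the 11886 genes past the filter. It was over 1 in all 4 mares for 34 members and for 38 of these genes (0.32%), the 4 set aside included.

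With the same mares and the same contrast, the edgeR likelihood ratio test with the mare as a block called 59 of the 60 members (adjusted p below 0.05 and over 2-fold), where 1.14% of 11892 tested genes were called in this direction. The rule had used this contrast, so the count describes the list and supports nothing. The quasi-likelihood test of edgeR called 0 of the 60, although all 60 had an unadjusted p under 0.05, and it called 1 of the 11892 genes in this direction (0.00841%). DESeq2 called 59 members and 1.31% of the genes. On simulated counts, the share of unchanged genes among the calls of the likelihood ratio test was above its nominal rate. This held in this comparison and in that with embryos. Its adjusted p values may thus be too small and its counts of calls too high. The simulated counts held a far smaller share of changed genes than was called between embryos and pregnant endometrium. How large the excess is in the data themselves is therefore not known. The pregnant and cyclic values did not overlap for 47 of the 60 members over all 9 libraries, against 2.36% of the genes past the filter.

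To see whether such a list holds in a mare that did not rank it, the ranking was repeated on 3 mares and the 60 genes it gave were read in the mare left out. The filter on level still used all 9 libraries, so a gene could pass it through a high pregnant value of the mare left out. When mare 3 was left out, 57 of the 60 genes were higher in pregnancy in that mare (55.5% of all genes past the filter) and 50 had a d over 1 (7.27% of all), while 1 had a d below -1 (3.31% of all). When mare 4 was left out, 54 were higher (42.8% of all) and 32 had a d over 1 (1.8% of all), while 1 had a d below -1 (2.12% of all). When mare 1 was left out, 49 were higher (42.6% of all) and 27 had a d over 1 (3.76% of all), while 5 had a d below -1 (3.53% of all). In these 3 mares the median d of genes chosen elsewhere was 2.18, 1.06 and 0.92, in the order given.

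The fewest genes were higher in mare 2. Of the 60 genes chosen on mares 1, 3 and 4, 36 were higher in pregnancy in mare 2 (59.1% of all genes) and 35 of them had a d over 1 (6.44% of all). The other 24 were lower in pregnancy, 21 of them with a d below -1 (5.77% of all). The changes ran from -5.59 to 6.14 in this mare, and 4 of the 60 genes lay between -1 and 1. For all 24 genes that fell, cyclic library 2 had a higher level than each of the other 3 cyclic libraries. For 19 of the 24, pregnant library 2 also had a lower level than pregnant libraries 1, 3 and 4. A fall in a mare favours both, and the same was seen on a smaller number of genes in mare 1, where 11 genes fell, cyclic library 1 was above the other cyclic libraries for 9 of them and pregnant library 1 was below the other 3 for 10. In pregnant library 5, 5 of the 24 genes that fell in mare 2 and 10 of the 11 that fell in mare 1 were above the cyclic libraries of the other 3 mares. Over all genes past the filter, cyclic library 2 was the highest cyclic library for 13.6% and cyclic library 1 for 30.2%. Pregnant library 5 was above all 4 cyclic libraries for 20.5% of all genes, which is a stricter condition. The share above 3 cyclic libraries was not counted over all genes. The 24 genes that fell in mare 2 rose in mares 1, 3 and 4 and are not among the members. When the mare left out took no part in the filter either, an alternative added after the data were seen, 50, 38, 58 and 54 of the 60 genes were higher in pregnancy in mares 1 to 4, and 28, 36, 49 and 32 had a d over 1. These counts were within 2 of those given above. Of the lists made without a mare, the one without mare 3 shared 50 genes with the members, the one without mare 4 shared 45, the one without mare 2 shared 36 and the one without mare 1 shared 34.

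**Figure D3:**
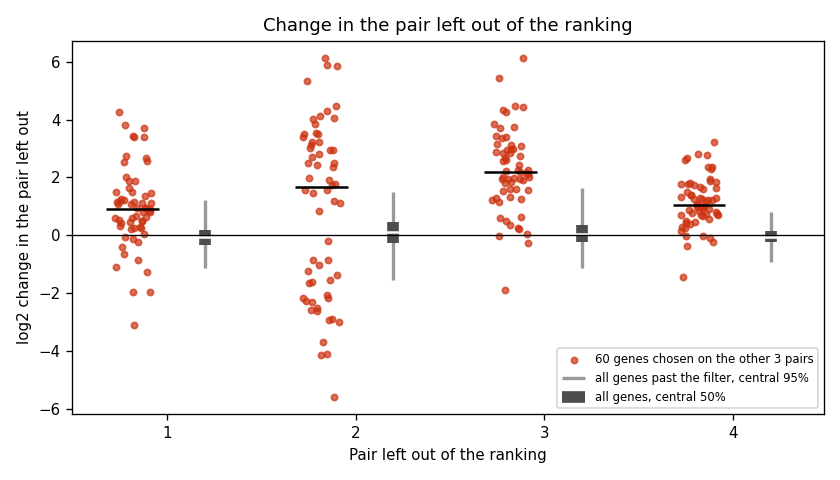
Log2 change in the pair left out (points) for the 60 genes ranked on the other 3 pairs, with their median as a line, beside the central 95% (thin bar), central 50% (thick bar) and median (white line) of all 11886 genes past the filter. Most points lie above 0 in pairs 1, 3 and 4, and those of pair 2 form an upper and a lower cloud.

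Pregnant library 5 offered a further check, since it had entered the filter but not the ranking. Of the 60 members, 54 were higher in it than in every cyclic library, against 20.5% of all genes past the filter. The cyclic libraries had been used in the choice, which favours a high count. With library 5 left out of the filter, 55 of the 60 members stayed. The others, members 19, 29, 31, 35 and 48, had passed the filter only through a level over 4 CPM in library 5. Their cyclic levels were all under 4 CPM, so a higher level in library 5 was fixed in advance for them. The list made without library 5 in the filter also gave a count of 54. Within the pregnant group, the choice favours high values in libraries 1 to 4, so library 5 could have fallen short of them. It was within their range for 39 members (60.2% of all genes), above it for 12 (22.6% of all genes) and below it for 9 (17.2% of all genes). The median ratio of its level to the mean of pregnant libraries 1 to 4 was 0.945, with a range from 0.152 for member 35 to 2.69 for member 19. Against the mean of the cyclic libraries, the members had a median log2 ratio of 1.89 in library 5, between the values of 1.36 in library 4 and 2.43 in library 2.

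In library 5, 6 members were at or below a cyclic library, against 79.5% of all genes past the filter. They were members 21, 37, 45, 46, 51 and 59. In 4 of them, members 21, 45, 46 and 51, cyclic library 2 held the highest cyclic level, against 13.6% of all genes past the filter. Member 21 had 134, 240, 50.6 and 31.4 CPM in cyclic libraries 1 to 4 and 165 CPM in pregnant library 5, so the latter was above 3 of the 4. Member 45 had 17.5 CPM in library 5, below cyclic libraries 1, 2 and 4. For none of the members was library 5 below all 4 cyclic libraries, against 11.5% of all genes past the filter.

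**Figure D4:**
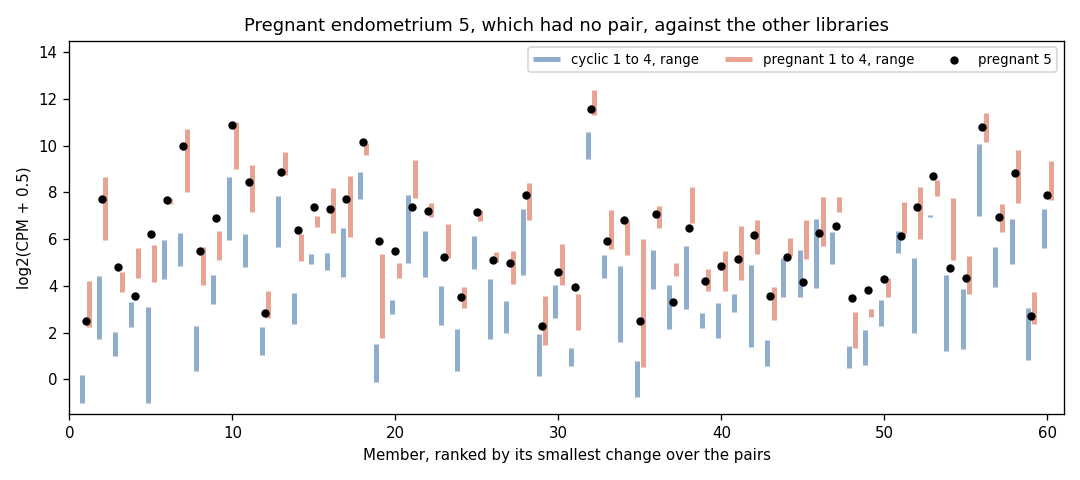
Level of members 1 to 60 as log2(CPM + 0.5) in pregnant library 5 (black points), beside the range over cyclic libraries 1 to 4 (blue bars) and over pregnant libraries 1 to 4 (red bars). The black points lie above the blue bars for 54 members and within the red bars for 39.

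The embryos had no part in the choice of the members, and most members were low in them. In embryos 2 to 5, every value was below every pregnant endometrium value for 49 of the 60 members (59.7% of all genes past the filter), and below every cyclic endometrium value for 30 (56.3% of all). The level was not over 4 CPM in any of the 5 embryos for 26 members (20.2% of all), and it was at most 1 CPM in all 5 for 15 members (9.96% of all). It was over 4 CPM in each of embryos 2 to 5 for 22 members (67.6% of all). By the edgeR likelihood ratio test without a block, with the same limits, 56 members could be tested between embryos and pregnant endometrium. Of these, 42 were lower in embryos, where 28.6% of the 11244 tested genes were called in this direction, and 5 were higher, where 27.1% were. The other 9 were not called, and 4 were not tested. The median log2 change from pregnant endometrium to embryo was -3.24 over the 56 members, also with member 19 at its bound, against 0.04 over all tested genes.

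The pregnant libraries had helped to choose the members for high values, which favours the direction lower in embryos. With cyclic endometrium as the reference, where the choice favours the opposite direction, 39 members could be tested, 14 were lower in embryos (25.3% of 10774 tested genes) and 8 were higher (24.7% of tested genes). The median log2 change from cyclic endometrium to embryo was -0.56 over the 39 members. With pregnant library 5 as the only reference and no filter beyond 1 count, an alternative added after the data were seen, all 60 members were tested, 27 were lower (9.55% of 19151 tested genes) and 3 were higher in embryos (3.04% of tested genes), with the lone library assumed to vary like the embryos. These comparisons share the embryo libraries.

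Several members were all but absent from the embryos. Member 7 had 2, 2, 1, 2 and 0 counts in embryos 1 to 5, in libraries that held up to 240 M counts, and its difference from pregnant endometrium had an adjusted p of 2.79e-27 in the edgeR likelihood ratio test. Members 12 and 19 had 0 counts in all 5 embryos (1.02% of all genes past the filter), and member 42 had 1 count in embryo 1 and 0 in the others. Member 19 had 10.3, 36.3, 40.4, 2.92 and 60.5 CPM in pregnant libraries 1 to 5. In unscaled CPM, its pregnant mean was at least 393-fold higher than the mean level of 3 counts over the 5 embryo libraries (0.0765 CPM). Member 12, at 8.80 ± 3.24 CPM in pregnant endometrium (SD, n = 5), was at least 115-fold higher on this scale. The scaling factors of the fit would lower both bounds. Member 2 had from 1 to 224 counts in the embryos, or at most 0.934 CPM. Member 1 had 0, 0, 1, 1 and 22 counts, so that its level was 0.851 CPM in embryo 5 and near 0 in the others.

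Members with a high level in endometrium could be low in the embryo as well. Member 10 had 0.180, 1.32, 0.906, 0.146 and 0.155 CPM in embryos 1 to 5, and its log2 change from pregnant endometrium was -9.22 (SE 0.73, adjusted p = 3.86e-18 by the likelihood ratio test of edgeR). Member 13 had a log2 change of -6.34 (SE 0.32, adjusted p = 1.62e-55 in the same test). Member 32, which took the most counts in endometrium, had 0.381 CPM in embryo 1 and from 4.41 to 8.90 CPM in embryos 2 to 5. No embryo came near the endometrium for any of these.

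The 5 members higher in embryos were members 26, 31, 35, 43 and 44. For 4 members the values of embryos 2 to 5 were above every pregnant value (12.9% of all genes), and for the same number they were above every endometrium value (11.5% of all genes). Member 26 had 838, 1005, 870 and 762 CPM in embryos 2 to 5 and 20.4 CPM in embryo 1. In pregnant endometrium it was even, at 42.8, 37.8, 31.7, 36.1 and 34.4 CPM, and in cyclic endometrium it had 19.1, 2.804, 10.6 and 11.1 CPM. The log2 change from pregnant endometrium to embryo was 5.47 (SE 0.26, adjusted p = 1.27e-66 by the likelihood ratio test of edgeR).

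Member 35 was the most uneven of these. It had 63.1, 29.97, 41.0, 0.956 and 5.12 CPM in pregnant libraries 1 to 5, between 0.0928 and 1.24 CPM in cyclic libraries, and 1059, 1370, 878 and 890 CPM in embryos 2 to 5. Its pregnant level in mare 4 was below the cyclic level of mare 2. Its log2 change from pregnant endometrium to embryo was 6.16 (SE 0.71, adjusted p = 3.12e-11 by the likelihood ratio test of edgeR). Other genes with more than 100 CPM in each of embryos 2 to 5 and under 2 CPM in every cyclic library were read in the same libraries, a set chosen after the data were seen. The 20 such genes other than member 35 were found in pregnant libraries 1 to 5 at a median of 0.0798, 0.0405, 0.133, 0.0774 and 0.116% of their mean level in embryos 2 to 5, and in cyclic libraries at a median of 0.0454 to 0.0772%. None exceeded 3.65 CPM or 1.15% of its embryo level in a pregnant library. Member 35 stood at 6.01, 2.86, 3.91, 0.0911 and 0.488% of its embryo level in pregnant libraries 1 to 5. In pregnant libraries 1, 2 and 3 it was above each of the 20 genes. Member 35 had been chosen for a rise in pregnant libraries 1 to 4, which favours this. In library 4 it was near their median, and in library 5 it was below the highest of them, at 0.987%. How much embryonic RNA contributed to these endometrium libraries was not tested.

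Members 31, 43 and 44 were higher in embryos by a smaller margin. Member 31 had 14.6, 60.2, 28.1 and 27.2 CPM in embryos 2 to 5 and from 3.85 to 14.8 CPM in pregnant endometrium, so embryo 2 lay within the endometrial range. Member 43 had 19.2, 43.8, 50.1 and 32.3 CPM in embryos 2 to 5, all above the highest pregnant value of 14.97 CPM. Member 44 had 304, 178, 125 and 231 CPM in embryos 2 to 5 against 37.1 to 66.2 CPM in pregnant endometrium, a log2 change of 3.57 (SE 0.46, adjusted p = 1.30e-11 by the likelihood ratio test of edgeR). Members 31 and 43 had log2 changes of 2.42 (SE 0.68) and 3.37 (SE 0.49), with adjusted p values of 0.00175 and 1.20e-09 in this test. With the whole library size and no scaling factors, members 31 and 43 were no longer called, and 3 members were higher in embryos. The embryo libraries have another composition than the endometrium libraries, and the scaling factors of this fit were between 1.95 and 2.02 for pregnant endometrium, between 0.843 and 1.16 for embryos 2 to 5 and 0.0315 for embryo 1.

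**Figure D5:**
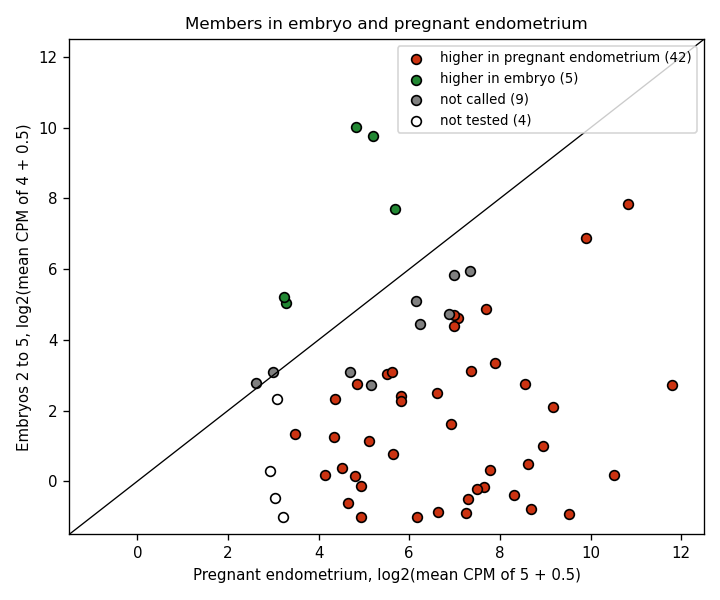
Mean level of the 60 members in embryos 2 to 5 against the mean in the 5 pregnant endometrium libraries, both as log2(mean CPM + 0.5) and without scaling factors, coloured by the call of the edgeR likelihood ratio test over all 5 embryos. The diagonal marks equal levels, most members lie below it, and members 26 and 35 lie farthest above it.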

How the data were processed

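The authors deposited raw read counts per Ensembl gene identifier, 1 file per library, for 14 libraries. Per the labels and the study's methods, cutadapt 1.11 removed adapters, and CLC Genomics Workbench mapped the reads to an EquCab assembly of the horse genome and counted them per gene. Neither the use of strand nor the handling of reads that map to several genes is given in the sources used here, so counts of overlapping or near-identical genes are uncertain. The counts had not been normalised or filtered. The smallest chi-square per degree of freedom over the 91 pairs of libraries was 60.6, so no library had been deposited more than 1 time.

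The deposited count files do not pair identifiers with symbols, and 0 of 26740 matched the RefSeq gene table, and symbols from other sources were not used here, so the gene lists and cell type markers that had been drawn up were not tested. The rule for the text took the leading members, those at the threshold, the widest and narrowest spread, the highest levels and the extremes between embryo and endometrium, and allowed 2 identifiers without symbols. Members and lists were chosen with earlier results of these data known. No sequence is shown, since no table matched the identifiers.

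CPM used library totals. Tests were run in R 4.3.3 with edgeR 4.0.16: TMM factors, more than 4 CPM in at least 4 fitted libraries, recomputed factors, negative binomial fit and likelihood ratio test, as the study states, with Benjamini-Hochberg adjustment over all tested genes. The mare, taken from the replicate number, was a block for pregnant against cyclic endometrium, since the study used each mare as her own control. Deviations of same-numbered samples from their group means correlated at 0.0790, 0.0693, 0.562 and 0.561 in pairs 1 to 4. Pregnant library 5 entered only the filter and scaling there. Embryos were compared without a block, and separate embryos and mares were taken as replicates. DESeq2 1.42.0 and the other alternatives are given in the closing section. On simulated data with known changes, the likelihood ratio test recovered the direction of changed genes, but in both comparisons the share of unchanged genes among its calls was above the nominal rate. Reads carried no molecular identifiers, so the level of 3 counts covers counting error only.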

Additional observations from a re-analysis of the deposited data

Results flagged for a closer look

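For 25 of the members described and for the share of counts of all members, the gap between the most extreme library of a group and the next was set against the whole range of that group. The gap was wide in 8 of 76 groups of 4 or 5 libraries. By chance 3.8 would be reached if the groups were independent and their values normal. The CPM values were not transformed and the groups share libraries, so 3.8 is a rough guide only. Member 1 accounted for 3 of them, with 0.644 CPM in cyclic library 2 against 0.0263 CPM in the next, 17.98 CPM in pregnant library 2 against 6.24 CPM, and 0.851 CPM in embryo 5 against 0.0197 CPM. Member 7 had 75.3 CPM in cyclic library 4 against 29.99 CPM in the next. Member 26 had 20.4 CPM in embryo 1 against 762 CPM in the next embryo. Member 42 had 0.0224 CPM in embryo 1, which was 1 count, against 0 in the others. The members together took 2.14% of the counts of pregnant library 2 against 1.43% in the next pregnant library, and 0.00939% of those of embryo 1 against 0.261% in the next embryo.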

How the results depend on the processing

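Of the 60 members, 34 were also taken without mare 1 and 36 without mare 2, and the lists without 1 mare shared from 34 to 50 members. The other 5 ways of making the list that were tried shared more than 40. The quasi-likelihood test with the mare as a block called 0 members between pregnant and cyclic endometrium, and 1 of 11892 genes in all. Without the replicate block 49 of 60 members were called, and 93 of 11892 genes in this direction. Omission of a mare or of pregnant library 5 gave from 47 to 56 members, out of 55 to 59 tested. The genes called in this direction were then from 82 to 219, out of 11673 to 11788 tested. Between embryos and pregnant endometrium, 42 members were lower and 5 higher in embryos. With the number as a replicate block these were 43 and 5, where 3321 and 2448 of 11244 genes were called. With the quasi-likelihood test they were 42 and 5, where 2889 and 2793 of 11244 genes were called. Without scaling factors 3 were higher in embryos, as were 754 of 12046 genes, and the median log2 change of all genes moved from 0.04 to -1.39. With cyclic endometrium as the reference 14 were lower and 8 higher, and with pregnant library 5 as the only reference 27 were lower and 3 higher. Omission of a library gave from 40 to 45 lower and from 5 to 6 higher, out of 54 to 58 members tested. From 2861 to 3752 genes were then lower and from 2580 to 3217 higher, out of 10719 to 11810 tested. Tests of the named members between embryo and endometrium kept their direction in all 188 alternatives, and 4 were no longer past the threshold, all of members 31 and 43, whose adjusted p values by edgeR and DESeq2 reached 0.631 and 0.169. Of values read in the mare left out, 144 of 240 had a d over 1, and 6 alternatives stayed within 1.5 times of this share. Pregnant library 5 was above every cyclic library for 54 to 56 members when a cyclic library was omitted. Where a number moved, the cause was not tested. Members with few counts in the embryos are limited by depth.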
